A study of Mus musculus with 15 samples.

Results

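The laminin and integrin genes of mouse skin are described here in healed wounds and in normal skin. The genes were taken by name. They are every symbol of the form Lam with a, b or c and 1 digit and every symbol that begins with Itga or Itgb, except 4 genes of other families that share these letters (Itgb1bp1, Itgb1bp2, Itgb3bp and Itgbl1). The 37 genes described here, of the 18929 in the table, are 10 laminin chains and 27 integrin chains. The rule reads only the symbol, but the family was taken up with earlier results of these data known. Of the 37 genes, 35 passed the filter on low counts and were tested. Itgad, a leukocyte alpha chain, held 44.01 counts in all over 10 of the 15 samples, and Itgb2l, a relative of the leukocyte beta2 chain, held 3 counts over 3 samples, so that both were left untested.

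RNA from dorsal skin of wild-type balb/c mice, male and 4 to 6 weeks old per the methods, was sequenced in 15 samples, 3 in each of 5 groups. In 4 groups a full-thickness wound of 10 mm or 15 mm had been filled either with acellular Matrigel beads or with beads that carried human umbilical cord mesenchymal stem cells at high cell density (HDB). The latter were printed sparsely among acellular beads, and the skin was taken after 4 weeks of implantation. The fifth group was normal skin, labelled as normal growth, whose age is not given separately. Matrigel is a basement membrane extract rich in laminin protein, so every wounded group had received laminin as protein, whereas the values below are mRNA. The human cells of the HDB groups could add human RNA to those libraries, and its part in the counts was not tested. The labels do not say that replicates came from separate animals, and p-values therefore measure only the spread between these samples, which may be technical. In whole tissue, fewer cells of a type and less RNA per cell cannot be told apart.

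Laminins are secreted trimers of an alpha, a beta and a gamma chain that assemble into the basement membrane under the epidermis, around hair follicles, vessels, nerves and muscle fibres. Integrins are receptors made of an alpha and a beta chain, which tie the cytoskeleton to laminins, collagens, fibronectin and, in leukocytes, to adhesion molecules on other cells. In skin, laminin-332, which holds the chains Lama3 and Lamb3, and the integrin alpha6beta4 hold the basal keratinocyte to the dermis through the hemidesmosome, and both are long studied in re-epithelialization of wounds.

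Depth differed little, with 15840551 to 18404188 counts a sample. Values are CPM, read counts scaled to the library total after TMM normalization. All 8 defining genes of keratinocytes and dermis (Krt5, Krt14, Krt10, Krt1, Col1a1, Col1a2, Col3a1 and Dcn) were detected. Their summed level was 8556 to 29773 CPM in the wounds and 14132 to 29488 CPM in normal skin. The make-up of the samples differed between wounds and normal skin. The summed level of 7 skeletal muscle genes was 622 to 30366 CPM in the wounds and 42897 to 52444 CPM in normal skin. That of 6 endothelial genes was 88.0 to 375 against 495 to 585 CPM, and that of 6 smooth muscle and pericyte genes was 412 to 866 against 866 to 1152 CPM. The summed level of 6 basal keratinocyte genes was 6787 to 21022 CPM in the wounds and 6651 to 9096 CPM in normal skin. No marker gene of these lists was at 0 in all samples. The library of acellular 15 mm replicate 1 stood apart. In it 15 genes of the hair shaft and inner root sheath summed to 25328 CPM and 6 leukocyte genes to 70.2 CPM, the highest and the lowest sums of the 15 samples.

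The stretch before the start of 3 genes on which results below turn is printed from RefSeq (mouse build GRCm38.p6), 5′ to 3′ on the gene's own strand and ending before the first annotated base of the gene. Of the 37 genes, 24 had an entry there, with 27 windows of 250 bases. The windows were searched on both strands for the AP-1 motif TGANTCA and the GC box GGGCGG, which do not overlap in sequence, and capitals mark GC box matches. An AP-1 match lay in 1 of the 27 windows (that of Itgax), against 6.75% of 32851 mouse promoter windows of the same length, and a GC box in 9 of the 27, against 32.7%. Lama5 (chromosome 2, minus strand), the laminin chain with the smallest p between treatments at 15 mm, had 4 GC box matches in its window, 3 of them in the printed stretch at chr2:180225905-180226109. Lamb2 (chromosome 9, plus strand, chr9:108479612-108479846) and Itgb8 (chromosome 12, minus strand, chr12:119238277-119238526) had neither motif, which says only that these letters are not in the window.
Lama5: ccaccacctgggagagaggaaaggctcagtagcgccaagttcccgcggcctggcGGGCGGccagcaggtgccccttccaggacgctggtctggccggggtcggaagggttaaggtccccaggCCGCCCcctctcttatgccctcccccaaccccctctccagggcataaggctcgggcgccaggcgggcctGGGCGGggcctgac
Lamb2: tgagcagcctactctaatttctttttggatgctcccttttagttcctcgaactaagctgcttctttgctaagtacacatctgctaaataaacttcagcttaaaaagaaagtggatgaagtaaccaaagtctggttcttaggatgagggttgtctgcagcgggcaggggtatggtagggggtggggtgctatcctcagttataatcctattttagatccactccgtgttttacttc
Itgb8: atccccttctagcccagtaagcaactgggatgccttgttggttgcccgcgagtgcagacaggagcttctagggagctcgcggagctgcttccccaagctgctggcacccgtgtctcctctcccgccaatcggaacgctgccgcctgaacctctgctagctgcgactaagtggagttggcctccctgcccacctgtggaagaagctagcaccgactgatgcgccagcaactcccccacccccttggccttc

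Per kilobase of transcript, a scale on which genes can be compared, Itgb1, the common beta chain of laminin, collagen and fibronectin receptors, had the highest mean level of the 37 genes at 99.4 CPM per kb over the 15 samples. It was followed by the laminin receptor chain Itga6 at 40.6, by Itgb5, a vitronectin receptor beta chain, at 35.9 and by Itgb4, the hemidesmosome beta chain, at 28.5 CPM per kb. Among the laminins the highest were Lamb3 at 25.9, Lamb2 at 25.3, Lamc1 at 22.9 and Lamb1 at 21.0 CPM per kb. The alpha chains were lower, with Lama4, a chain of vessel walls, at 14.5 and Lama2, the chain of muscle and nerve, at 7.23 CPM per kb. Lama5, the chain of laminin-511 in epithelial and vascular basement membranes, stood at 7.10, Lama3 at 5.45 and Lama1, best known from the embryo, at 0.0839 CPM per kb. The heatmap of single samples shows how the 35 tested genes varied around the mean of normal skin.

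**Figure D1:**
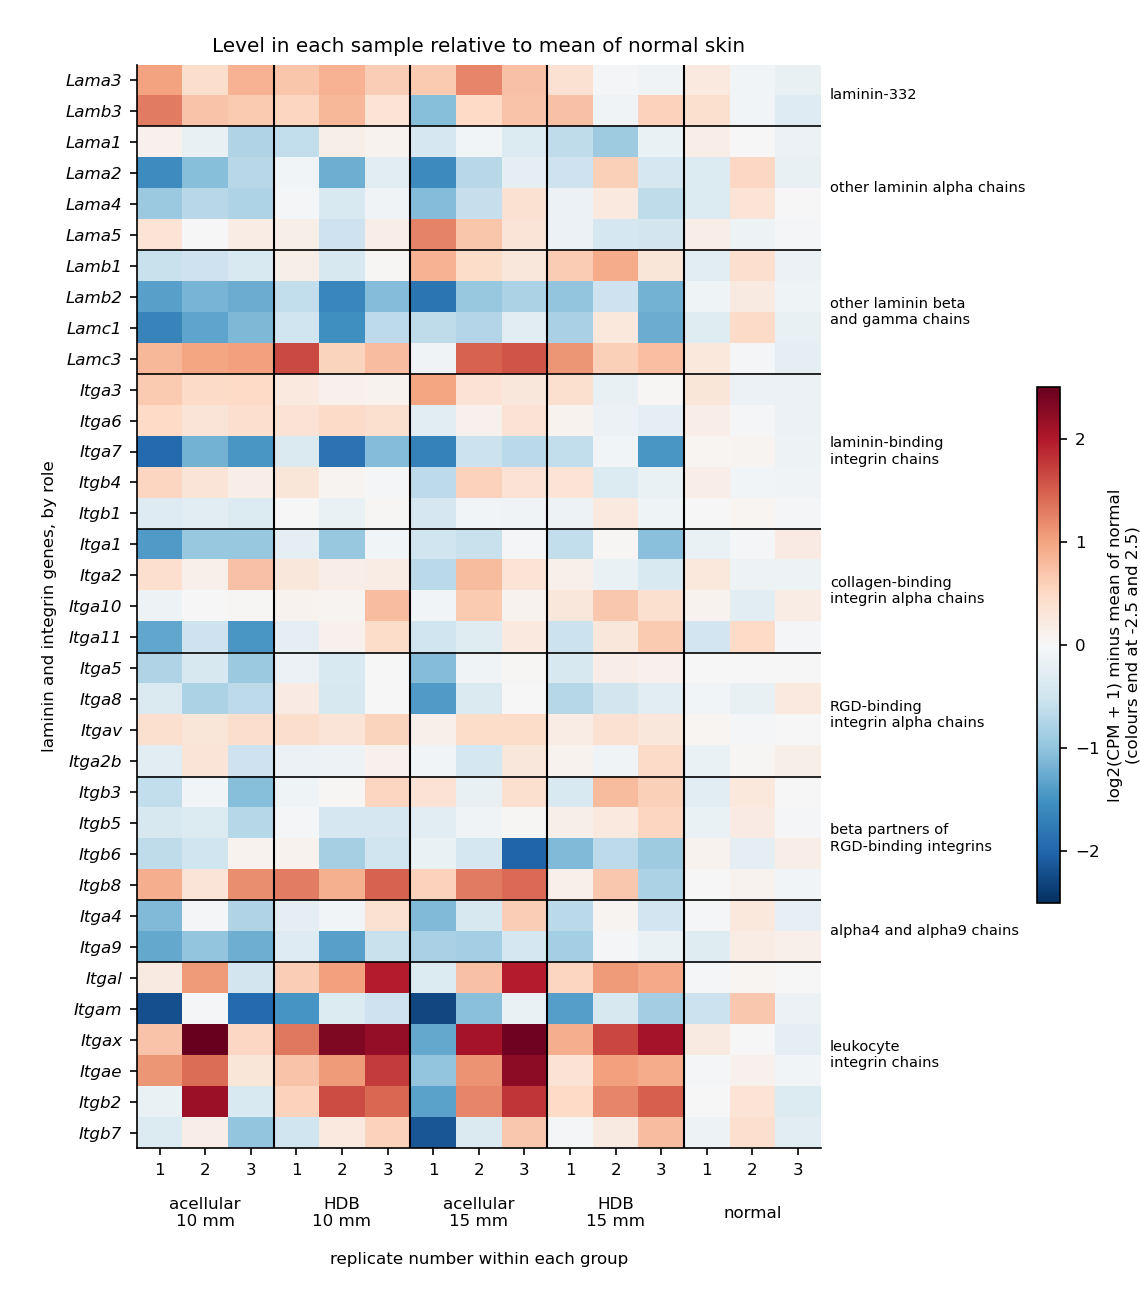
Each row is 1 of the 35 tested laminin and integrin genes, grouped by role, and each column is 1 sample, with colour giving log2(CPM + 1) minus the mean of the 3 normal samples. Itgav was above the normal mean and Lamb2 below it in all 12 wounds, and the leukocyte chains varied most from sample to sample.

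The first question was how the 4 wounded groups together differed from normal skin. Of the 35 genes, 8 were called at an adjusted p under 0.05 by edgeR's quasi-likelihood test, 4 higher and 4 lower in wounds. This is 22.9% of them, whereas 30.9% of all 15369 tested genes were called (14.2% higher and 16.7% lower). The difference between these shares was not tested, and when 1 sample was left out the count ran from 1 to 12, beside 11.9% to 40.1% of all genes. At an unadjusted p under 0.05 were 11 of the 35 genes, beside 43.7% of all genes, and DESeq2 called 11, beside 40.0%. Their median log2 fold change was -0.02 beside 0.04 over all genes, with 17 genes higher and 18 lower. Higher in wounds were Lamc3, Itgb8, Lama3 and Itgav, and lower were Lamb2, Itga7, Lamc1 and Itga9. The estimates of all 35 genes are drawn in the plot of log2 fold changes.

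**Figure D2:**
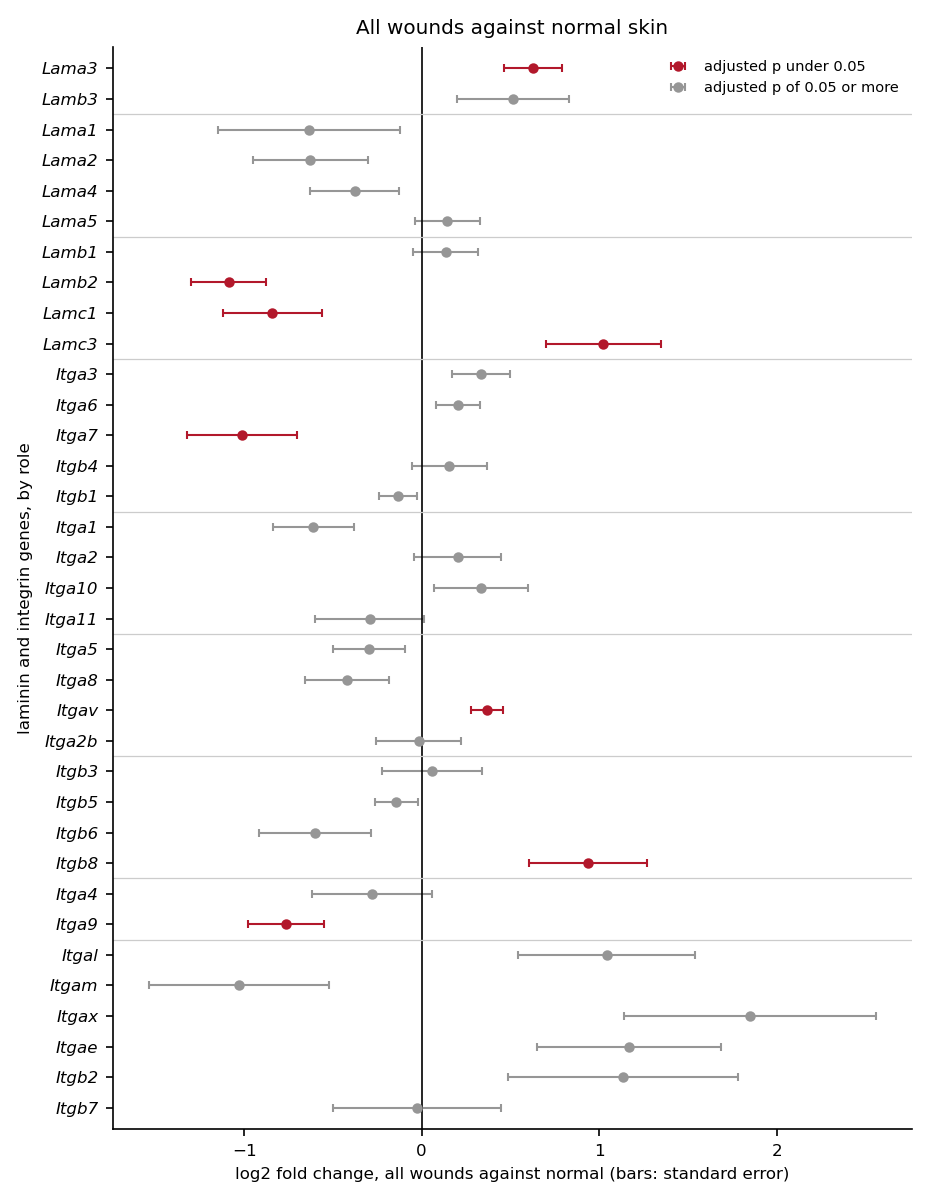
Points give the log2 fold change of all 12 wounds against 3 normal samples for each of the 35 genes, in the order of their roles, and bars give 1 standard error. The 8 called genes are in red. Itgax has the largest estimate at 1.85 but also the widest error, 0.71, and was not called.

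Of the laminin-332 chains Lama3 and Lamb3, Lama3 was higher in wounds and Lamb3 did not pass the test. Lama3 stood at 78.7, 53.4 and 72.2 CPM in acellular 10 mm, 63.7, 72.0 and 60.1 in HDB 10 mm, 62.0, 91.7 and 65.7 in acellular 15 mm and 50.7, 37.5 and 36.8 in HDB 15 mm. Normal skin held Lama3 at 46.4, 37.1 and 34.1 CPM. Its level was above every normal sample in 10 of 12 wounds (log2 fold change 0.63, standard error 0.16, adjusted p = 0.0141), and the remaining pair, both of the HDB 15 mm group, lay within the normal range. Lamb3, the beta chain and per length the more abundant, stood at 224, 149 and 143 CPM in acellular 10 mm, 132, 161 and 116 in HDB 10 mm, 42.8, 128 and 149 in acellular 15 mm and 151, 84.8 and 135 in HDB 15 mm. Normal skin held Lamb3 at 119.5, 86.3 and 72.1 CPM. Lamb3 was above the normal samples in 9 of 12 wounds but fell below all of them in acellular 15 mm replicate 1 (log2 fold change 0.52, standard error 0.31, adjusted p = 0.224). Without that library its adjusted p was 0.0391. The basal keratinocyte genes, summed in each sample, were at 21022, 14823 and 14161 CPM in acellular 10 mm, 12338, 16613 and 10189 in HDB 10 mm, 6787, 16354 and 12617 in acellular 15 mm and 16989, 8819 and 16077 in HDB 15 mm. Normal skin gave 9096, 6747 and 6651 CPM, so these genes too were mostly higher in wounds, and their part in the laminin-332 result was not tested.

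The receptor of laminin-332 at the hemidesmosome did not pass the test either. Itga6 stood at 219, 193 and 206 CPM in acellular 10 mm, 197, 214 and 205 in HDB 10 mm, 127, 167 and 199 in acellular 15 mm and 164, 139 and 131 in HDB 15 mm. Normal skin held Itga6 at 173, 151 and 139.6 CPM. Its level exceeded the highest normal sample in 7 of 12 wounds and fell below the lowest in 3. Itgb4 stood at 235, 201 and 181 CPM in acellular 10 mm, 199.8, 169 and 159 in HDB 10 mm, 103, 239 and 208 in acellular 15 mm and 206, 127 and 143 in HDB 15 mm. Normal skin held Itgb4 at 181, 154 and 151 CPM. Here too 7 of 12 wounds were above and 3 below every normal sample. Neither was called between all wounds and normal skin (log2 fold change 0.21, adjusted p = 0.217 for Itga6 and 0.16, adjusted p = 0.597 for Itgb4).

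Among the other beta and gamma chains, Lamb2 and Lamc1 were lower and Lamc3 was higher in wounds. Lamb2, the beta chain of the basement membranes of muscle, nerve and vessels, stood at 95.6, 109 and 103 CPM in acellular 10 mm, 159, 78.0 and 115 in HDB 10 mm, 68.1, 127 and 141 in acellular 15 mm and 124, 172 and 108 in HDB 15 mm. Normal skin held Lamb2 at 227, 286 and 226 CPM. All 12 wounds lay below the lowest normal sample (log2 fold change -1.09, standard error 0.21, adjusted p = 0.00456), that is 0.471 times the normal level. Lamc1, the gamma chain shared by most laminins, stood at 79.9, 102 and 117 CPM in acellular 10 mm, 183, 88.0 and 163 in HDB 10 mm, 166, 155 and 214 in acellular 15 mm and 145, 307 and 108 in HDB 15 mm. Normal skin held Lamc1 at 208, 361 and 227 CPM. In 10 of 12 wounds Lamc1 was below every normal sample (log2 fold change -0.84, standard error 0.28, adjusted p = 0.0388). Lamc3, a gamma chain described in skin and nerve, stood at 41.0, 45.7 and 47.2 CPM in acellular 10 mm, 73.6, 34.0 and 39.4 in HDB 10 mm, 21.4, 64.4 and 69.2 in acellular 15 mm and 49.99, 34.9 and 38.9 in HDB 15 mm. Normal skin held Lamc3 at 27.4, 21.8 and 19.3 CPM. It exceeded the normal samples in 11 of 12 wounds (log2 fold change 1.02, standard error 0.32, adjusted p = 0.0313), acellular 15 mm replicate 1 being the exception. Lamb1, the beta chain of laminin-511, ranged from 71.7 to 203 CPM (median 123) in the wounds and at 87.5, 142 and 95.2 in normal skin and was not called (log2 fold change 0.13, adjusted p = 0.593).

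Of the 4 other alpha chains, 0 were called between all wounds and normal skin by edgeR or by DESeq2, beside 30.9% and 40.0% of all genes, and 0 had an unadjusted p under 0.05, beside 43.7%. Lama4, the most abundant of them, stood at 54.5, 64.5 and 60.7 CPM in acellular 10 mm, 101, 80.3 and 97.9 in HDB 10 mm, 48.4, 69.3 and 137 in acellular 15 mm and 93.7, 123 and 66.7 in HDB 15 mm. Normal skin held Lama4 at 82.6, 132 and 104 CPM. It was lower in 7 of 12 wounds than in any normal sample (log2 fold change -0.38, adjusted p = 0.264). Lama2 ranged from 29.6 to 137 CPM (median 59.8) in the wounds and at 71.7, 132 and 80.0 in normal skin. Of the 12 wounds, 8 lay below the lowest normal sample (log2 fold change -0.63, adjusted p = 0.153). Lama5 and Lama1 gave log2 fold changes of 0.14 and -0.64 (adjusted p = 0.57 and 0.359), Lama1 at levels near 1 CPM.

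Of the 5 laminin-binding integrin chains, 1 was called, beside 30.9% of all genes. Itga7, the laminin receptor alpha chain of skeletal and smooth muscle, stood at 18.9, 32.6 and 26.9 CPM in acellular 10 mm, 58.5, 20.3 and 34.9 in HDB 10 mm, 22.7, 51.5 and 47.1 in acellular 15 mm and 48.8, 72.0 and 26.7 in HDB 15 mm. Normal skin held Itga7 at 78.2, 79.6 and 69.1 CPM. It was below every normal sample in 11 of 12 wounds (log2 fold change -1.01, standard error 0.31, adjusted p = 0.0281). The skeletal muscle genes summed to 4411, 11294 and 23141 CPM in acellular 10 mm, 30366, 749.9 and 7195 in HDB 10 mm, 2617, 16252 and 622 in acellular 15 mm and 11101, 22588 and 7788 in HDB 15 mm. All 12 wounds were thus below normal skin in the muscle genes, and likewise in the endothelial genes, as for the most part in Itga7, Lamb2 and Lamc1. The part of these cells in the lower levels of the 3 genes was not tested. Itgb1 stood at 323, 336 and 319.9 CPM in acellular 10 mm, 411, 360.2 and 412 in HDB 10 mm, 304, 388 and 382 in acellular 15 mm and 371, 482 and 378 in HDB 15 mm. Normal skin held Itgb1 at 402, 418 and 399.9 CPM. With 9 of 12 wounds below every normal sample it was not called (log2 fold change -0.13, adjusted p = 0.359). Itga3, the alpha chain of the keratinocyte receptor alpha3beta1, gave a log2 fold change of 0.34 (adjusted p = 0.133).

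Of the 4 collagen-binding alpha chains, 0 were called by edgeR and 1 had an unadjusted p under 0.05, beside 30.9% and 43.7% of all genes. Itga1, a receptor chain for collagen IV on vessels and stroma, ranged from 9.08 to 26.5 CPM (median 16.9) in the wounds and at 23.0, 25.2 and 29.98 in normal skin, with 9 of 12 wounds below every normal sample. It was not called by edgeR (log2 fold change -0.61, standard error 0.23, adjusted p = 0.058), and DESeq2, which called 40.0% of all genes, called it (adjusted p = 0.0258). Itga2, a keratinocyte collagen receptor and the most abundant of the 4 per length, stood at 27.2, 22.2 and 34.3 CPM in acellular 10 mm, 24.8, 22.8 and 23.2 in HDB 10 mm, 12.3, 35.7 and 25.9 in acellular 15 mm and 22.2, 17.8 and 15.3 in HDB 15 mm. Normal skin held Itga2 at 24.4, 18.3 and 18.2 CPM, and the wounds overlapped with these values (log2 fold change 0.20, adjusted p = 0.547). Itga10 and Itga11, collagen receptor chains of cartilage and of fibroblasts, gave log2 fold changes of 0.33 and -0.29 (adjusted p = 0.356 and 0.486).

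The integrins that bind the RGD motif of fibronectin, vitronectin and latent TGF-beta, 4 alpha and 4 beta chains, contributed 2 called genes, beside 30.9% of all genes. Itgav, the common alphav chain, stood at 141, 131 and 144 CPM in acellular 10 mm, 145, 133 and 157 in HDB 10 mm, 116, 146 and 146 in acellular 15 mm and 120.1, 137 and 128 in HDB 15 mm. Normal skin held Itgav at 109.5, 104 and 105 CPM. All 12 wounds exceeded the highest normal sample, by a small and even margin (log2 fold change 0.37, standard error 0.09, adjusted p = 0.0107, 1.29 times the normal level). Itgb8, which pairs with alphav and serves in activation of latent TGF-beta, stood at 11.3, 7.19 and 13.7 CPM in acellular 10 mm, 14.9, 11.1 and 17.3 in HDB 10 mm, 8.73, 15.2 and 16.5 in acellular 15 mm and 6.17, 9.52 and 2.77 in HDB 15 mm. Normal skin held Itgb8 at 5.48, 5.96 and 5.23 CPM. It was above the normal samples in 11 of 12 wounds (log2 fold change 0.94, standard error 0.33, adjusted p = 0.048), with the lowest value of all in HDB 15 mm replicate 3. Itgb5, the most abundant beta partner, stood at 94.5, 98.1 and 75.3 CPM in acellular 10 mm, 120.0, 92.4 and 93.3 in HDB 10 mm, 104, 118 and 127 in acellular 15 mm and 139, 148 and 182 in HDB 15 mm. Normal skin held Itgb5 at 111, 143 and 122 CPM, within the range of the wounds. None of Itgb3, Itgb5 and Itgb6 passed the test, with log2 fold changes of 0.06 for Itgb3, -0.14 for Itgb5 and -0.60 for Itgb6, the epithelial partner of alphav. The other alpha chains gave -0.30 for Itga5, the fibronectin receptor, -0.42 for Itga8, the nephronectin receptor, and -0.02 for Itga2b, the platelet fibrinogen receptor, none of them called.

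Itga9, an alpha chain that binds tenascin-C and is found in muscle, vessels and epithelium, stood at 10.3, 12.7 and 10.8 CPM in acellular 10 mm, 20.9, 9.63 and 17.5 in HDB 10 mm, 14.7, 14.3 and 19.2 in acellular 15 mm and 14.3, 25.4 and 23.5 in HDB 15 mm. Normal skin held Itga9 at 21.1, 30.3 and 28.7 CPM. It was below the normal samples in 10 of 12 wounds (log2 fold change -0.76, standard error 0.21, adjusted p = 0.0188). Its relative Itga4, the alpha chain that binds VCAM-1 on vessels, gave a log2 fold change of -0.28 and was not called.

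The stability of these 8 calls was uneven over 22 alternatives that changed the normalization, filter, tool or block or left out 1 sample. Lamb2 was called in all 22, Lama3, Itgav and Itga9 in 20, Itga7 in 19, Lamc3 in 18, Lamc1 in 13 and Itgb8 in 8, always in the same direction. The normal samples mattered most, and without normal replicate 3 only Lamb2 was left. There Lama3 had an adjusted p of 0.0839, Itgav of 0.0576, Itga9 of 0.0898, Itga7 of 0.0762, Lamc1 of 0.0798, Lamc3 of 0.136 and Itgb8 of 0.153. Without normal replicate 2 likewise only Lamb2 was left.

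**Figure D3:**
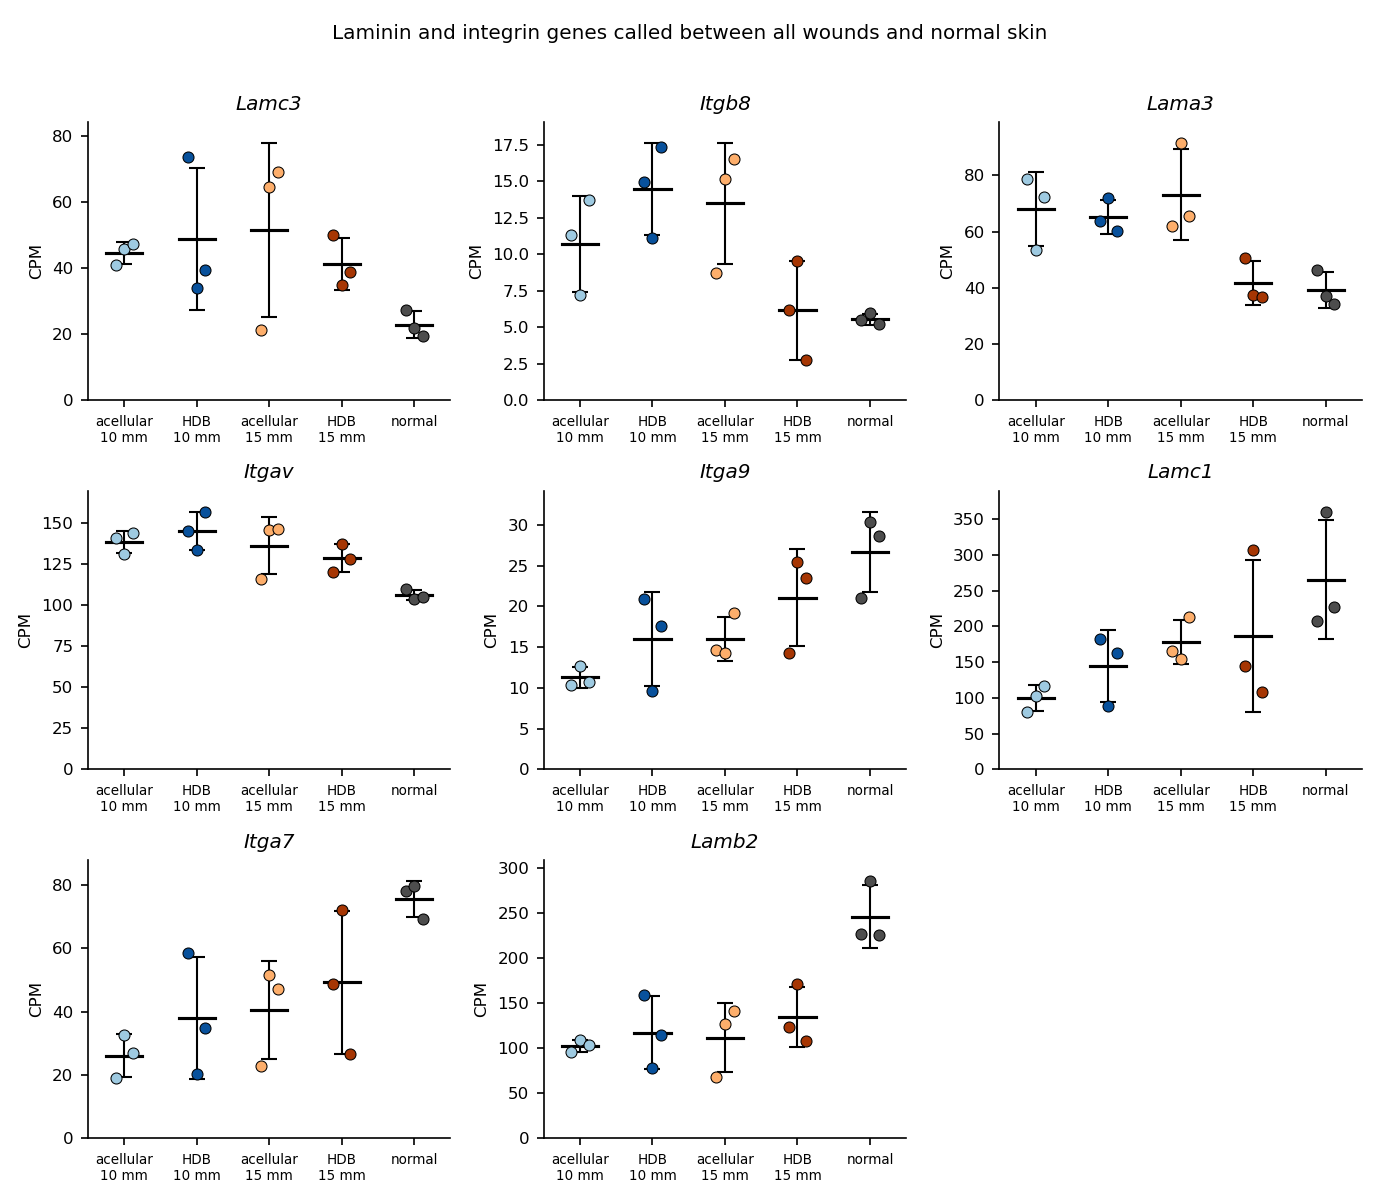
CPM of the 8 called genes in each of the 15 samples, from highest to lowest log2 fold change, with the mean (line) and SD (bar) of each group of 3. Itgav and Lamb2 separate all wounds from normal skin, whereas Lama3 in the HDB 15 mm group overlaps with normal skin.

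The leukocyte chains gave the 3 largest estimates of the family and none was called by edgeR, with 2 of 6 at an unadjusted p under 0.05, beside 43.7% of all genes. DESeq2 called those 2, beside 40.0% of all genes, Itgax (adjusted p = 0.0167) and Itgae (adjusted p = 0.0334). Itgb2, the beta chain of the leukocyte receptors, stood at 14.3, 74.5 and 12.3 CPM in acellular 10 mm, 24.9, 52.2 and 45.8 in HDB 10 mm, 5.78, 39.2 and 58.1 in acellular 15 mm and 23.3, 39.3 and 47.6 in HDB 15 mm. Normal skin held Itgb2 at 16.3, 20.9 and 12.5 CPM. Itgax, the alpha chain known as CD11c of dendritic cells and macrophages, stood at 17.4, 71.2 and 15.0 CPM in acellular 10 mm, 26.6, 55.2 and 49.98 in HDB 10 mm, 3.57, 45.7 and 59.2 in acellular 15 mm and 19.9, 34.4 and 46.2 in HDB 15 mm. Normal skin held Itgax at 11.9, 10.1 and 8.59 CPM. Both genes varied widely between the samples of each wounded group, and acellular 15 mm replicate 1 was below all normal samples for both. The log2 fold changes against normal skin were 1.85 for Itgax (standard error 0.71, adjusted p = 0.0643) and 1.17 for Itgae, the CD103 chain that binds E-cadherin (adjusted p = 0.104). They were 1.13 for Itgb2 (adjusted p = 0.195) and 1.04 for Itgal, the LFA-1 chain (adjusted p = 0.126). Without acellular 15 mm replicate 1 the adjusted p was 0.00991 for Itgax, 0.0101 for Itgae and 0.046 for Itgal. Itgam, the Mac-1 chain, which lies beside Itgax on chromosome 7, gave the opposite sign (-1.03, adjusted p = 0.136), and Itgb7, a beta chain of gut and skin lymphocytes, gave -0.03.

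The 6 general leukocyte genes (Ptprc, Cd52, Laptm5, Coro1a, Cd53 and Lcp1) summed to 218, 466 and 158 CPM in acellular 10 mm, 224, 413 and 553 in HDB 10 mm, 70.2, 275 and 535 in acellular 15 mm and 259, 389.6 and 406 in HDB 15 mm. Their sum was 264, 313 and 247 CPM in normal skin. Itgb2 was mostly high where the leukocyte sum was high, and acellular 15 mm replicate 1 was lowest in both. In normal skin the leukocyte sum lay within the range of the wounds while Itgax lay below all wounds but 1. Macrophage genes summed to 247 to 658 CPM in normal skin and to 64.0 to 363 CPM in the wounds, and Itgam had its highest value in normal skin, at 13.7, 33.3 and 18.4 CPM against 3.40 to 19.9 CPM in the wounds. The part of leukocyte number in these levels was not tested.

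**Figure D4:**
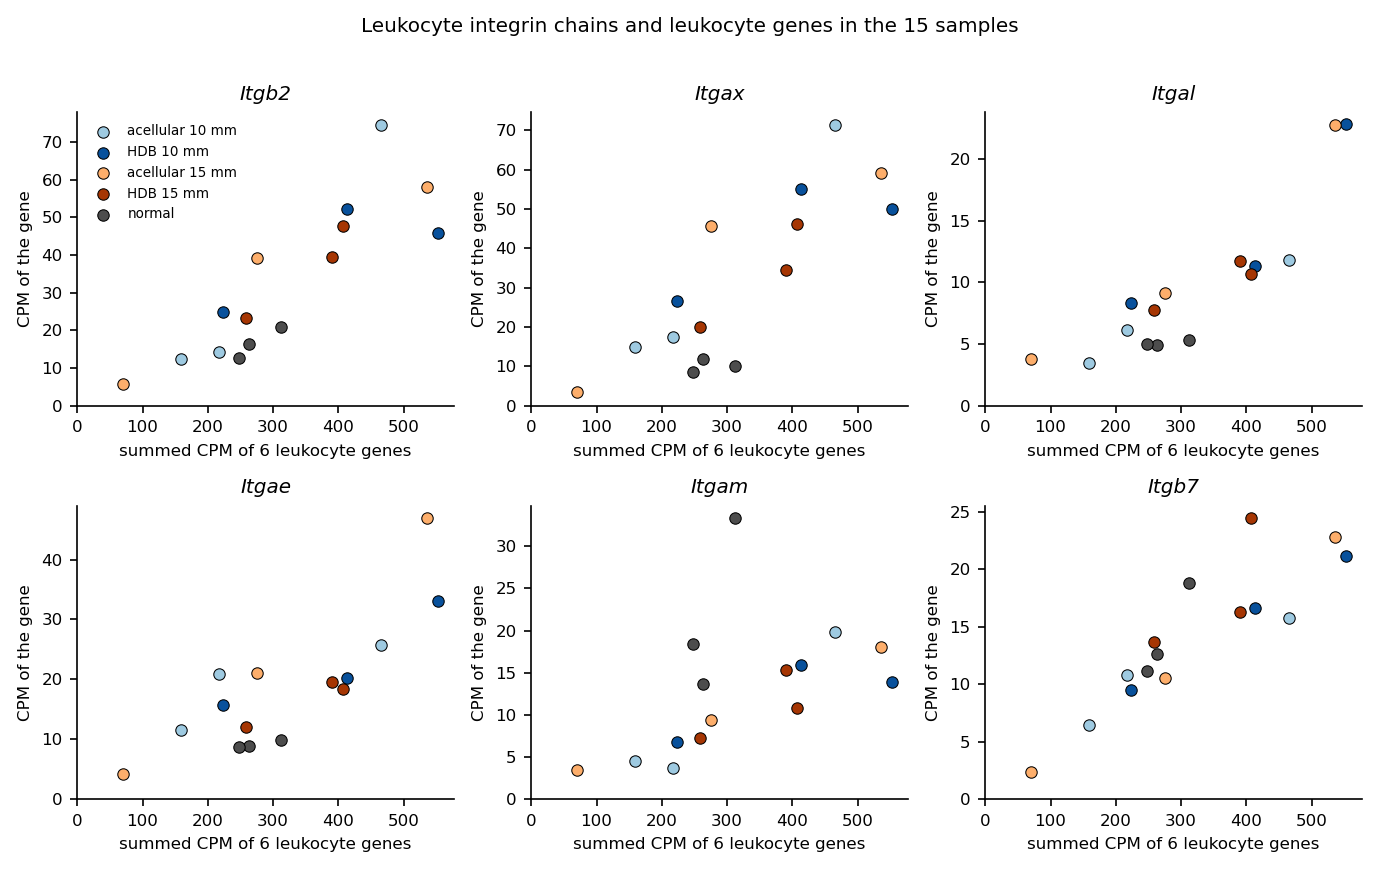
CPM of 6 leukocyte integrin chains (vertical axes) against the summed CPM of 6 leukocyte genes (horizontal axes), 1 point for each of the 15 samples. Samples with more leukocyte mRNA had more Itgb2, Itgax, Itgal and Itgae, and the 3 normal samples lie low for Itgax, Itgal and Itgae at a middle leukocyte sum.

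Each wounded group was then set against the same 3 normal samples, so the 4 comparisons below share their controls. In acellular 10 mm, 8 of the 35 genes were called, 2 higher and 6 lower, beside 20.3% of all genes (9.77% higher and 10.6% lower). Lama3 (0.80) and Itgav (0.39) were higher. Itga7 (-1.53), Lamc1 (-1.41), Lamb2 (-1.26), Itga9 (-1.24), Itga1 (-1.16) and Itgb5 (-0.49) were lower. These are log2 fold changes with adjusted p between 0.0145 and 0.0466. The count fell to 0 without acellular 10 mm replicate 1 or normal replicate 2, to 1 without normal replicate 3, to 4 without acellular 10 mm replicate 3 and to 5 without normal replicate 1. Over all genes the share called when 1 sample was left out was 5.14% to 11.9%. The count was 16 by DESeq2, beside 32.9% of all genes, and 20 in a fit on only the 6 samples compared, beside 42.0%. For all 8 genes the 3 samples of acellular 10 mm did not overlap with normal skin. The share of all genes without overlap was not counted, here or in the comparisons below. In this group the skeletal muscle sum was 4411 to 23141 CPM, the endothelial sum 88.0 to 169 CPM and the fibroblast sum 3516 to 5433 CPM, against 42897 to 52444, 495 to 585 and 7240.3 to 23973 CPM in normal skin.

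In acellular 15 mm, 7 of the 35 genes were called, 6 higher and 1 lower, beside 30.2% of all genes (17.6% higher and 12.6% lower). The higher genes were Itgb8 (1.28), Lamc3 (1.18), Lama3 (0.90), Lama5 (0.80), Itga3 (0.58) and Itgav (0.36). The lower gene was Lamb2 (-1.14), with adjusted p between 0.00849 and 0.0482. Lama5 and Itga3 were thus called against normal skin only in the acellular 15 mm group of the 4, while the tests of treatment and of its interaction with size are given below. Samples of Lamc3 and Itga3 overlapped with normal skin, those of the other 5 genes did not. The count fell to 4, 3 and 2 without normal replicates 1, 2 and 3 and to 4 without acellular 15 mm replicate 2. In a fit on only the 6 samples compared it was 1, Lama3 (adjusted p = 0.0498), with the other 6 genes at adjusted p of 0.0518 to 0.137. That fit called 6.57% of all genes, and leaving out 1 sample gave 14.8% to 37.3% of all genes.

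In HDB 10 mm, 4 of the 35 genes were called, 3 higher and 1 lower, beside 12.3% of all genes (6.1% higher and 6.23% lower). They were Itgb8 (1.38), Lama3 (0.73), Itgav (0.45) and, lower, Lamb2 (-1.07), with adjusted p between 0.0259 and 0.0424, and none of them overlapped with normal skin. The count fell to 0 without HDB 10 mm replicate 2 or 3 or any 1 of the normal samples, where 0.501% to 3.86% of all genes were called. It was 9 by DESeq2 and 8 in a fit on only the 6 samples compared, beside 24.8% and 20.2% of all genes. In HDB 15 mm, edgeR called 0 of the 35 genes, beside 5.18% of all genes. There 5 of the genes had an unadjusted p under 0.05, beside 26.9% of all genes, led by Lamb2 (log2 fold change -0.87, standard error 0.29, adjusted p = 0.0879), and DESeq2 called 2, Lamb1 and Lamb2, beside 18.6% of all genes. With only the 6 samples compared edgeR called 7 of the 35, beside 22.9% of all genes, and with the length trend removed 1, beside 5.71%. A call in one group and none in another does not show that the groups differ.

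The HDB groups were next compared with the acellular groups of the same wound size, that is, beads with and without stem cells. At 15 mm, 2 of the 35 genes were called between HDB and acellular, both laminin alpha chains and both lower in HDB, beside 2.93% of all genes (0.579% higher and 2.35% lower). Lama5 stood at 169.8, 117 and 89.2 CPM in the acellular samples and 64.7, 52.2 and 52.0 CPM in the HDB samples. The means were 125 ± 40.9 and 56.3 ± 7.25 CPM (SD, n = 3 each). The groups did not overlap (log2 fold change -1.15, standard error 0.23, adjusted p = 0.0302 by edgeR), the HDB level being 0.450 times the acellular one. Lama3 stood at 62.0, 91.7 and 65.7 CPM in the acellular samples and 50.7, 37.5 and 36.8 CPM in the HDB samples. Here too the groups did not overlap (log2 fold change -0.81, standard error 0.20, adjusted p = 0.0495 by edgeR). The exact two-sided permutation test gave p = 0.1 for each gene, the smallest value that 3 against 3 samples allow.

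Normal skin held Lama5 at 80.9, 65.9 and 68.9 CPM and Lama3 at 46.4, 37.1 and 34.1 CPM, so that the acellular 15 mm group, not HDB 15 mm, was the group above normal skin in both genes. For Lama5 the 3 HDB 15 mm samples lay below the lowest normal sample (log2 fold change -0.35, adjusted p = 0.345). With the replicate number as a block in the fit of all groups, Lama5 remained called (log2 fold change -1.13, adjusted p = 0.0398) and Lama3 was not (log2 fold change -0.82, adjusted p = 0.0683). That fit assumes the same replicate effect in every group, so it is not a paired test at 15 mm. Both calls were lost once the dependence on transcript length was taken out of every sample (Lama5 -0.83, adjusted p = 0.229, and Lama3 -0.48, adjusted p = 0.316). With that correction edgeR called 0 genes of the whole table, with 16.9% of them at an unadjusted p under 0.05. Without acellular 15 mm replicate 1, Lama5 had a log2 fold change of -0.87 (adjusted p = 0.0676), and without HDB 15 mm replicates 1, 2 or 3 its adjusted p was 0.0747, 0.0922 and 0.151. Lama3 lost its call without acellular 15 mm replicates 1 or 2 (adjusted p = 0.0633 and 0.0801) and without HDB 15 mm replicates 1, 2 or 3 (adjusted p = 0.0747, 0.142 and 0.195). In a fit on the 6 samples of 15 mm alone the adjusted p was 0.464 for both. That fit and those without any 1 of the HDB 15 mm samples also called 0 genes of the whole table, with 10.7% to 19.8% of them at an unadjusted p under 0.05.

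Genes of the hair shaft and inner root sheath moved with Lama5 in some groups and not in others. They summed to 25328, 1976 and 33.6 CPM in the 3 acellular 15 mm samples and to 806, 147 and 129 CPM in HDB 15 mm, the order of the samples within each group being that of Lama5. Acellular 15 mm replicate 3, whose sum was below all HDB 15 mm sums, held Lama5 above all 3 HDB samples. In acellular 10 mm the sums were 1776, 22.0 and 543 CPM and Lama5 stood at 91.2, 71.0 and 82.0 CPM, again in the same order. In HDB 10 mm the sums were 38.7, 42.3 and 45.9 CPM and Lama5 stood at 79.4, 49.6 and 80.0 CPM, not in the same order. Normal skin had the lowest sums, 9.06 to 11.2 CPM, with Lama5 above every HDB 15 mm sample. The part of follicle cells in the Lama5 difference was not tested.

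Of the 35 genes, 5 had an unadjusted p under 0.05 at 15 mm, beside 23.2% of all genes, and those besides Lama5 and Lama3 were not called by edgeR. Itgb8 stood at 8.73, 15.2 and 16.5 CPM in acellular and 6.17, 9.52 and 2.77 CPM in HDB (log2 fold change -1.13, standard error 0.39, adjusted p = 0.119), with an overlap of the groups, and DESeq2 called it (adjusted p = 0.0295). Itgb5 was higher in each HDB sample (156 ± 22.9 CPM) than in each acellular one (116 ± 11.7 CPM, SD, n = 3 each), though not called (log2 fold change 0.43, standard error 0.16, adjusted p = 0.137). Itga3 stood at 116, 74.2 and 70.5 CPM in acellular and 76.4, 50.6 and 58.8 CPM in HDB, again with its highest value in acellular 15 mm replicate 1 (log2 fold change -0.49, standard error 0.20, adjusted p = 0.175). Over the 35 genes the median log2 fold change at 15 mm was 0.07, beside 0.00 over all genes.

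**Figure D5:**
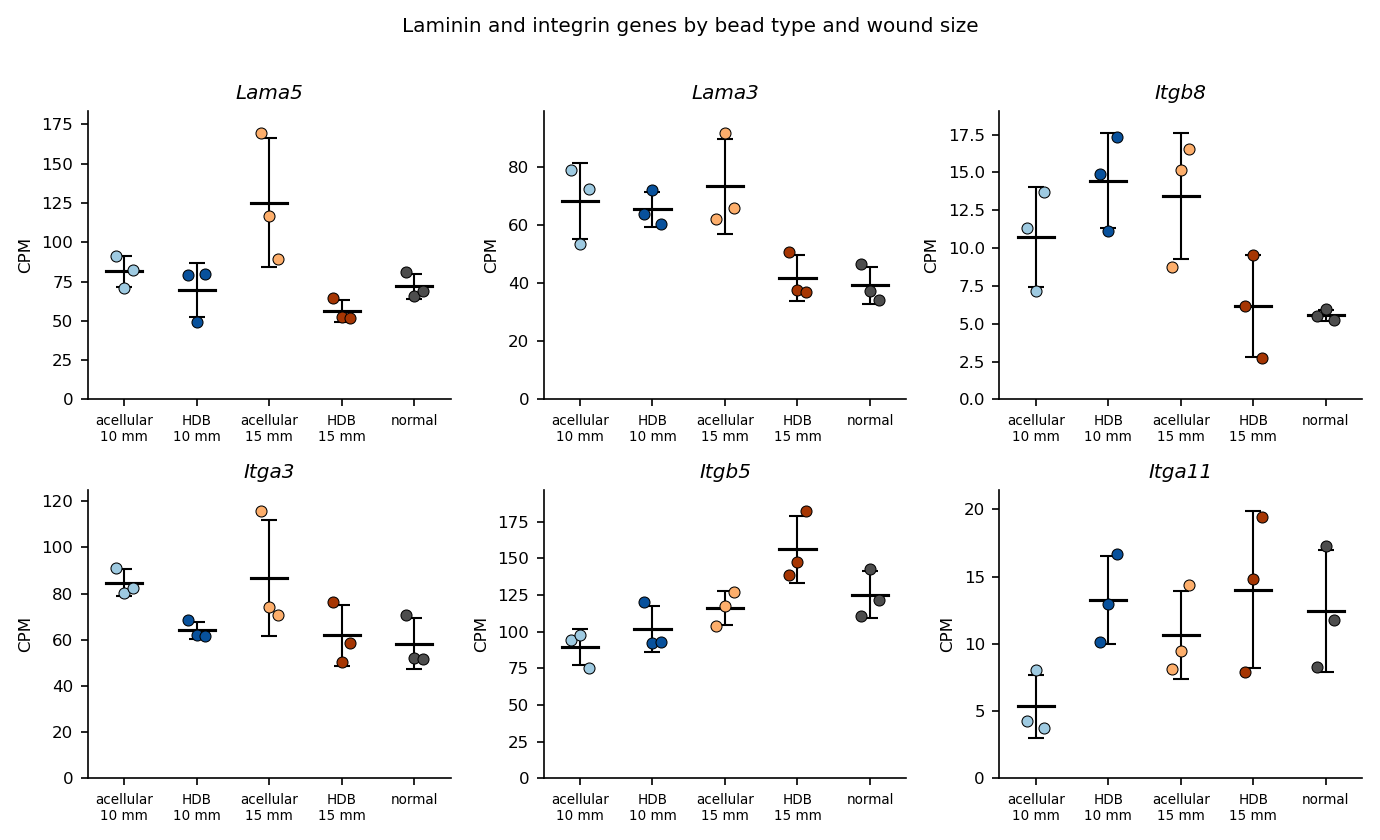
CPM in each of the 15 samples of the 5 genes with an unadjusted p under 0.05 between HDB and acellular at 15 mm and of Itga11, the gene with the smallest p at 10 mm, with the mean (line) and SD (bar) of each group of 3. Lama5 and Lama3 are lower in HDB 15 mm than in acellular 15 mm without overlap, and in the 10 mm groups their values overlap.

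At 10 mm no gene of the table was called between HDB and acellular by edgeR, that is 0% of 15369, with 543 genes at an unadjusted p under 0.05, and DESeq2 called 0 of the 35 and 0.111% of all genes. Of the 35 genes, 2 had an unadjusted p under 0.05, both of them collagen receptor chains. Itga11, the collagen receptor of fibroblasts, stood at 4.28, 8.03 and 3.74 CPM in acellular and 10.1, 12.97 and 16.7 CPM in HDB. The groups did not overlap (log2 fold change 1.31, unadjusted p = 0.00694, adjusted p = 1, edgeR). Itga1 stood at 9.08, 12.97 and 12.9 CPM in acellular and 21.6, 13.02 and 24.7 CPM in HDB, again without overlap (log2 fold change 0.76, unadjusted p = 0.0258, adjusted p = 1, edgeR). The fibroblast genes moved the same way, summing to 3516, 5433 and 3718 CPM in acellular and 8947, 9992 and 11811 CPM in HDB, and their part in the Itga11 and Itga1 values was not tested. In the lower direction the smallest p-values were those of Itga3 and Lama5. Itga3 stood at 91.2, 80.4 and 82.3 CPM in acellular and 68.4, 62.0 and 61.7 CPM in HDB (log2 fold change -0.40, unadjusted p = 0.0684, adjusted p = 1, edgeR). Lama5, whose groups overlapped, gave less (log2 fold change -0.23, unadjusted p = 0.348, adjusted p = 1, edgeR). The estimates leaned upward, with 27 of the 35 higher in HDB and a median of 0.35, beside 48.2% of all genes higher and a median of -0.01. Genes of several cell types moved the same way between these groups. All 6 fibroblast, 6 endothelial, 6 leukocyte, 6 macrophage and 5 adipocyte genes had higher estimates in HDB 10 mm, with medians of 1.26, 0.62, 0.47, 0.45 and 1.497 on the log2 scale. All 6 basal keratinocyte genes were lower (median -0.37), as were all 15 genes of the hair shaft and inner root sheath (median -5.28). The endothelial sum was 94.1, 169 and 88.0 CPM in acellular and 229, 119 and 212 CPM in HDB, and the leukocyte sum was 158 to 466 and 224 to 553 CPM, both with an overlap. The part of these cells in the upward lean was not tested.

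Over both sizes edgeR called 0 of the 35 genes and 0% of all genes, with 9 of the 35 and 2428 of all genes at an unadjusted p under 0.05. DESeq2 called 1 of the 35, Lama5, beside 2.76% of all genes. Lower in HDB were Lama5 (-0.69, standard error 0.16), Itga3 (-0.44, standard error 0.14) and Lama3 (-0.44, standard error 0.14). Higher were Itga11 (0.85, standard error 0.28), Itgb5 (0.31, standard error 0.11) and Itgb1 (0.24, standard error 0.10), all log2 fold changes with adjusted p of at least 0.261. Exact permutation tests over samples, with labels permuted within size, gave p = 0.02 for Lama5, 0.015 for Itga3, 0.05 for Lama3, 0.04 for Itga11, 0.03 for Itgb5 and 0.03 for Itgb1, not adjusted over the 35 genes, where the smallest possible value is 0.005. These tests use the same samples as the edgeR fit and are not separate support for the genes named from it.

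The interaction of treatment and size tested whether the HDB difference changed from 10 mm to 15 mm. By edgeR it called 0 of the 35 genes and 0% of all genes, with 3 of the 35 and 2063 of all genes at an unadjusted p under 0.05, and DESeq2 called 0 of the 35 and 5.65% of all genes. The 3 genes were Itgb8 (log2 fold change -1.56, standard error 0.55, adjusted p = 0.238) and the laminin chains Lama5 (log2 fold change -0.93, standard error 0.33, adjusted p = 0.238) and Lama3 (log2 fold change -0.75, standard error 0.28, adjusted p = 0.265), whose differences were more negative at 15 mm. The different calls of the 2 sizes for Lama5 and Lama3 therefore did not amount to a tested difference between sizes.

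The partners of laminins and integrins were counted on lists of basement membrane, hemidesmosome, cytoplasmic and ligand genes. Of 18 basement membrane genes, 5 were called higher and 0 lower in all wounds against normal skin, beside 14.2% and 16.7% of all genes, with a list median of -0.15. The largest rises were those of Fras1 and Frem2, which bind the epidermal basement membrane to the dermis. Fras1 ranged from 6.85 to 32.9 CPM (median 10.6) in the wounds and at 3.30, 5.22 and 5.70 in normal skin (log2 fold change 1.49, standard error 0.36, adjusted p = 0.0105). Frem2 ranged from 17.3 to 39.5 CPM (median 31.7) in the wounds and at 18.5, 15.5 and 18.8 in normal skin (log2 fold change 0.71, standard error 0.17, adjusted p = 0.00906). The collagen IV chain Col4a1 ranged from 163 to 705 CPM (median 387) in the wounds and at 342, 571 and 262 in normal skin and was not called (log2 fold change -0.17, adjusted p = 0.658). In acellular 10 mm against normal skin 4 genes of the list were called higher and 3 lower, beside 9.77% and 10.6% of all genes. The higher genes were Fras1 (1.27), Frem2 (0.93), the proteoglycan agrin, Agrn (0.81), and the collagen IV chain Col4a5 (0.56), as log2 fold changes with adjusted p between 0.0121 and 0.0485. Among the lower genes Nid1, which links laminin to collagen IV, was at -1.64 and the proteoglycan Hspg2 at -1.16 (adjusted p = 0.0229 and 0.0221). Col4a2, a collagen IV chain, was the third. Acellular 15 mm gave 5 higher (Agrn, Col18a1, Col4a5, Fras1 and Frem2) and 0 lower, beside 17.6% and 12.6% of all genes. HDB 10 mm gave 2 higher (Fras1 and Frem2) and 0 lower, beside 6.1% and 6.23%. In HDB 15 mm edgeR called 0, with 3 at an unadjusted p under 0.05 and 1 called by DESeq2, beside 5.18%, 26.9% and 18.6% of all genes.

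Of 7 hemidesmosome and other laminin receptor genes, 0 were called in all wounds against normal skin by edgeR, with 1 at an unadjusted p under 0.05 and 1 called by DESeq2, the tetraspanin Cd151. The shares over all genes were 30.9%, 43.7% and 40.0%. Rpsa, a ribosomal protein also described as a laminin receptor, gave a log2 fold change of 0.08 (adjusted p = 0.777). Of 15 cytoplasmic partners, 1 was called higher and 7 lower, beside 14.2% and 16.7% of all genes. Fermt1, the kindlin of keratinocytes, ranged from 35.6 to 94.8 CPM (median 62.8) in the wounds and at 32.0, 27.3 and 21.2 in normal skin (log2 fold change 1.23, standard error 0.20, adjusted p = 0.00229), all wounds being above normal skin. It was also called in HDB 15 mm against normal skin (0.91, adjusted p = 0.047). The lower genes were led by Parvb, a parvin of muscle, which ranged from 5.71 to 26.9 CPM (median 13.3) in the wounds and at 55.4, 39.8 and 50.9 in normal skin (log2 fold change -1.72, standard error 0.38, adjusted p = 0.00735). Tns1, a tensin, followed and ranged from 139 to 435 CPM (median 236) in the wounds and at 559, 645 and 541 in normal skin (log2 fold change -1.17, standard error 0.27, adjusted p = 0.00847). These 2 genes were, like the muscle sum, below normal skin in all 12 wounds, and the part of muscle cells was not tested.

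Of 8 integrin ligands outside the laminins, 7 were tested and 3 called, 2 higher and 1 lower, beside 30.9% of all genes. Tnc, which encodes tenascin-C, a ligand of Itga9 and alphav integrins, ranged from 44.0 to 126 CPM (median 87.2) in the wounds and at 13.3, 9.31 and 8.72 in normal skin (log2 fold change 2.99, standard error 0.31, adjusted p = 0.000333), the largest change of the 4 lists. It was called in each wounded group against normal skin. Cdh1, E-cadherin and the ligand of Itgae, ranged from 193 to 459.9 CPM (median 354) in the wounds and at 236, 186 and 208 in normal skin (log2 fold change 0.71, standard error 0.17, adjusted p = 0.0101). Fn1, fibronectin, ranged from 62.9 to 568 CPM (median 161) in the wounds and at 184, 562 and 433 in normal skin and was lower in wounds (log2 fold change -1.14, standard error 0.39, adjusted p = 0.0441). Tnc was thus higher in wounds where its receptor chain Itga9 was lower. Between HDB and acellular no gene of the 4 lists was called by edgeR at 10 mm, at 15 mm, over both sizes or for the interaction. At 15 mm 5 basement membrane genes and 1 cytoplasmic partner had an unadjusted p under 0.05, all lower in HDB. DESeq2 called 3, Col18a1, Col4a5 and Fras1, and the shares over all genes were 23.2% and 14.1%. At 10 mm the counts at an unadjusted p under 0.05 were 3 basement membrane genes, 1 hemidesmosome gene and 1 cytoplasmic partner, and DESeq2 called 0, beside 3.53% and 0.111% of all genes. Of these genes Col4a1, Col4a2, Nid2 and Parva were higher in HDB and Bcam was lower.

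The genes whose CPM followed that of Itgb2 most closely over the 15 samples by Spearman's rho were Cd300c2 at 0.979, Pira1 at 0.971 and Plek at 0.971, genes of myeloid cells, and within the family Itgax (0.95) and Itgal (0.921) stood nearest. These are descriptions over 15 samples of 5 groups, which share their group differences.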

How the data were processed

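Bulk RNA-seq of 15 mouse skin samples was analysed from 1 table of estimated counts per gene (expected counts of RSEM) that the authors deposited. HISAT2 2.0.4, Bowtie2 2.2.5, RSEM 1.2.12 and the build GRCm38.p6 are named in the submitters' processing notes. The 18929 rows were rounded to whole counts, and 15369 genes passed edgeR's filterByExpr. Groups came from the sample labels. All 15 samples entered 1 fit with TMM normalization and the quasi-likelihood test of edgeR 4.0.16 in R 4.3.3, with 5 group means and no covariate, and p-values were adjusted by Benjamini-Hochberg over all tested genes with a threshold of 0.05. Total counts were 15840551 to 18404188 per sample, and counts of a gene that shares reads with a relative were split by the authors' estimation. Lengths were those of the longest GENCODE M21 transcript. Tables were made with Python 3.11.15, pandas 2.3.3 and matplotlib 3.10.9.

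Alternatives were DESeq2 1.42.0, its size factors in edgeR, no filter, a stricter filter at a mean count of 50, removal of the trend with transcript length, a fit on only the groups compared, a minimum log2 change of 1, the replicate number as a block and leaving out each sample. Same-numbered samples deviated together most clearly, in all 3 pairs, between acellular and HDB at 15 mm (correlations 0.397, 0.167 and 0.183). Lower correlations, all positive, were found between normal skin and HDB 15 mm (0.115, 0.136 and 0.0158) and between normal skin and acellular 10 mm (0.00255, 0.151 and 0.0622). Any pairing is thus read from the data and not the labels. The block fit shares its replicate effect among all 5 groups, so it is not a paired test at 15 mm. Genes named with all their values were the chains of laminin-332 and alpha6beta4, the gene of each role with the highest mean CPM, the 3 called genes with the largest change in each direction of a comparison, and, where none was called, the 2 with the smallest p in each direction. Of the 38 genes that the naming rule matches, 1 is not reported here, and all counts of members leave it out. The genes of the family, the partner lists and the marker lists were chosen with earlier results of these data known. The fitting steps were tested on simulated data with known changes.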

Additional observations from a re-analysis of the deposited data

How the results depend on the processing

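No log2 fold change tracked over the alternatives changed its sign. Of 973 gene values under alternatives, 809 kept their side of the threshold, 147 lost a call and 17 gained one, and the causes were not tested beyond the construction of each alternative.

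Between HDB and acellular at 15 mm the count of called genes was 2, and it was 1 with no filter, 1 with the replicate block, 0 with the length trend removed, 0 with that removal and the replicate block, 0 with only the groups compared, 1 with a minimum log2 change of 1, 3 by DESeq2, 2 at a mean count of at least 50 and 0 to 2 when 1 sample was left out. The count was 0 without acellular 15 mm replicate 1 or any 1 of the HDB 15 mm samples and 1 without acellular 15 mm replicate 2. Over both sizes it was 0, 1 by DESeq2 and 0 to 1 with a sample left out (1 without acellular 15 mm replicate 3). Of all genes, 2.76% were called over both sizes by DESeq2 and 1.47% without that replicate, against 0%. At 10 mm and for the interaction it was 0 under all alternatives.

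Between all wounds and normal skin the count was 8, and it was 3 with the minimum change and 1 to 12 with a sample left out (4, 1 and 1 without normal replicates 1, 2 and 3, and 12 without acellular 15 mm replicate 1). Acellular 10 mm against normal skin gave 8, and 16 by DESeq2, 20 with only the groups compared, 5 with the minimum change and 0 to 8 with a sample left out (0 without acellular 10 mm replicate 1 or normal replicate 2, 1 without normal replicate 3). Acellular 15 mm gave 7, and 5 with the replicate block, 1 with only the groups compared, 3 with the minimum change and 2 to 8 with a sample left out. HDB 10 mm gave 4, and 9 by DESeq2, 2 with the replicate block, 8 with only the groups compared, 2 with the minimum change and 0 to 4 with a sample left out. HDB 15 mm gave 0, and 2 by DESeq2, 1 with the length trend removed, 7 with only the groups compared and 0 with any sample left out. For HDB 15 mm the share of all genes called was 18.6% by DESeq2, 5.71% with the length trend removed, 22.9% with only the groups compared and 0.218% to 8.61% with a sample left out, and for acellular 15 mm it was 25.3% with the replicate block and 6.57% with only the groups compared. For HDB 10 mm it was 7.72% with the replicate block. Between HDB and acellular at 15 mm it was 0% with the length trend removed or only the groups compared, 1.06% with no filter, 1.16% with the replicate block, 14.1% by DESeq2, 5.24% at a mean count of at least 50 and 0% to 14.9% with a sample left out (14.9% without acellular 15 mm replicate 3), against 2.93%. With the minimum change it was 0.371% there, and against normal skin 11.9% for all wounds, 10.8% for acellular 10 mm, 13.6% for acellular 15 mm and 5.8% for HDB 10 mm. The numbers do not pair wounds with normal skin, where the replicate block is only an alternative fit.

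Depth limited Lama1, Itgad and Itgb2l, which lay near or under 1 CPM.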

Other observations

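Marker genes of further cell types that express laminin or integrin chains were summed in each sample. The platelet and megakaryocyte genes, among them Itga2b itself, summed to 7.08 to 21.0 CPM in the wounds and 21.8 to 37.0 CPM in normal skin, and Itga2b ranged from 3.22 to 7.34 CPM (median 4.69) in the wounds and at 4.36, 5.09 and 5.63 in normal skin. The Schwann cell genes, whose cells carry Lama2 and Lamb2 in nerve, summed to 128 to 787 CPM in the wounds and 679 to 914 CPM in normal skin. The adipocyte genes summed to 308 to 4106 CPM in the wounds and 2143 to 4501 CPM in normal skin, the T cell genes to 4.82 to 48.6 CPM in the wounds and 26.4 to 28.7 CPM in normal skin, and the neutrophil genes to 5.20 to 217 CPM in the wounds and 11.03 to 11.2 CPM in normal skin, with the highest sum in HDB 10 mm replicate 2. For the platelet genes every wound lay below normal skin. The part of these cells in the levels of laminins and integrins was not tested.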
